A study of Mus musculus with 16 samples.

Results

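The chaperone genes described here are those whose symbols begin with Hsp followed by a, b, d, e, h or a digit, with Dnaj followed by a, b or c, or with Cct followed by a digit from 2 to 8. Of the 15386 genes in the RNA-seq table, 75 matched, and of the 13490 genes in the m6A table, 72 matched, with 71 in both tables. They were grouped by symbol into HSP90, HSP70, HSP110, HSP60 with its partner HSP10, small HSP, the CCT chaperonin, and the DNAJA, DNAJB and DNAJC families. A further 5 matched by name alone, namely *Hspbap1*, *Hspbp1*, *Hspb11* and the processed pseudogenes *Hspd1-ps3* and *Hspe1-ps2*. *Tcp1*, the alpha subunit of CCT, did not match and is given with the partner genes. Cct6a fits the rule but was found in neither table.

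The study sorted colony-forming unit-erythroid (CFU-E) cells, the progenitors that give rise to proerythroblasts, from the bone marrow of adult C57BL/6 mice of both sexes. RNA-seq covered control CFU-E cells (3 libraries) and CFU-E Kit-lo cells (3 libraries) from mice with floxed *Mettl3* alleles (*Mettl3* fl/fl) and 1 copy of EpoR-tdTomato-Cre. The m6A experiment set IP (2) beside input (2) libraries, both from control CFU-E. METTL3 is the enzyme that places N6-methyladenosine (m6A) on mRNA, and *Kit* is the stem cell factor receptor by which the cells were sorted. The genotype of the control animals is not given in the sources used here, and nothing in them says that the libraries came from separate animals, so that p-values measure the spread between these libraries, which may be technical. The groups differed in genotype and in the *Kit* gate together, and the effects of these cannot be told apart. EpoR-tdTomato-Cre also recombines in the macrophages of erythroblastic islands. In bulk RNA, fewer cells of a type and less RNA per cell cannot be told apart.

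Chaperones help proteins reach and keep their folded form. HSP70 proteins bind exposed stretches of a client in a cycle driven by ATP. J-proteins (DNAJA, DNAJB, DNAJC) bring clients to HSP70 and start its hydrolysis of ATP, and HSP110 proteins release the nucleotide. HSP90 acts later, on kinases and receptors. CCT in the cytosol and HSP60 in mitochondria are double rings in which a protein folds inside a closed chamber, and actin and tubulin are the best known clients of CCT. Heat shock factor 1 (HSF1) switches on many of these genes through repeats of the heat shock element, and the unfolded protein response switches on the chaperones of the endoplasmic reticulum (ER). In erythroid cells, HSP70 is known for shielding GATA1 from caspase cleavage.

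Promoter windows from RefSeq (GRCm38.p6; 250 bases before and 50 after a start site) matched 62 of the 76 symbols found in either table. The others had no window and were not searched, so nothing is said of their motifs. *Hspa8*, *Hsp90aa1*, *Hsp90ab1*, *Cct4*, *Hspa13* and *Dnajc2* are among them. A pair of inverted units of the heat shock element, GAANNTTC or TTCNNGAA, was found in the windows of 15 of the 62 (24.2%) and of 4587 of all 27025 genes with a window (17%). Runs of 3 alternating GAA and TTC units, each 2 bases apart, were found in 4 of the 62 (6.45%) against 0.662% of all genes, and every such run also holds an inverted pair. The ER stress response element, CCAAT and CCACG 9 bases apart, was found in 3 of the 62 (4.84%) against 0.137%. Both strands were searched for each motif. A match describes the letters and is not evidence of binding. The windows are shown because their genes belong to the groups followed below, with the element in capitals and 5 bases on either side. The first 4 lines hold heat shock elements and the others ER stress response elements.
*Hspd1* (chr1:55088054-55088081, minus strand): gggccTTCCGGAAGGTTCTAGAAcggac
*Hspe1* (chr1:55088054-55088081, plus strand): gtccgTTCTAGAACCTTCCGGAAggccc
*Hsph1* (chr5:149636283-149636305, minus strand): gcagaTTCTGGAAAGTTCtcctc
*Dnajb6* (chr5:29735847-29735869, plus strand): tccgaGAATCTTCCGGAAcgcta
*Hspa5* (chr2:34772020-34772048, plus strand): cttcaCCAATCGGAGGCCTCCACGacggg
*Hsp90b1* (chr10:86705633-86705661, minus strand): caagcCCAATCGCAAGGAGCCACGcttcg
*Hsp90b1* (chr10:86705528-86705556, minus strand): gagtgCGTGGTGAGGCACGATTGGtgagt
*Dnajc3* (chr14:118937822-118937850, plus strand): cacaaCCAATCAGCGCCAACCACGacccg
The lines of *Hspd1* and *Hspe1* are the same bases read on opposite strands, since the genes for HSP60 and HSP10 stand head to head, and this run holds 4 units. The second line of *Hsp90b1* holds its element on the other strand.

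The inducible HSP70 genes *Hspa1a* (chr17:34969190-34972156, minus strand) and *Hspa1b* (chr17:34956436-34959238, minus strand), both in GRCm38 coordinates, need a word before their values. Over the 250 bases before the start site they were 98.8% identical, with the substitutions C44T, T47C and T249G. The base of *Hspa1a* is given first, and positions are counted from 1 at the 5′ end of the window. Each held 1 exact match to the inverted pair of heat shock element units, shown in capitals below. Imperfect units were not searched for.
*Hspa1a* (chr17:34972157-34972406, minus strand): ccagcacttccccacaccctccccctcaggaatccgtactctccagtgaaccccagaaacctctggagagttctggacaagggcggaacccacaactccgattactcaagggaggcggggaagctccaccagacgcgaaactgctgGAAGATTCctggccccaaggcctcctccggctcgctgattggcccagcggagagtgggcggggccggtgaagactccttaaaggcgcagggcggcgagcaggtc
*Hspa1b* (chr17:34959239-34959488, minus strand): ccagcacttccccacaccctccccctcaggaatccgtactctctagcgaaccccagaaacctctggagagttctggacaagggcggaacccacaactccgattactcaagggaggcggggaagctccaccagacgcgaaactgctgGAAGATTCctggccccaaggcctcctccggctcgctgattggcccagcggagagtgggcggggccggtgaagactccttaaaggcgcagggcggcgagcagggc
Their transcripts are also alike. Of the 31-base words in the annotated transcripts of *Hspa1a*, 63.8% also occur in those of *Hspa1b*. How the reads of this pair were shared between the genes is thus uncertain.

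Library totals ran from 17429262 to 21329242 estimated counts in the RNA-seq and from 19421059 to 37142742 in the m6A experiment. The targeted gene did not separate the groups. *Mettl3* stood at 115, 123 and 129.8 CPM (counts scaled to a common library size) in control CFU-E and, in CFU-E Kit-lo libraries labelled Mettl3-deficient, at 117, 127 and 108 CPM, a log2 fold change of -0.07 ± 0.10 (SE; adjusted p = 0.634 in edgeR). The paper, by contrast, reports that *Mettl3* mRNA and protein were absent from erythroid cells of the knockout mice, by qRT-PCR and Western blot. It also reports a lower global m6A level in enriched erythroid cells. In *Mettl3*-deficient CFU-E cells it reports less m6A on *Mthfd1* mRNA, by antibody capture and qPCR, and a shorter half-life of that mRNA. For these measurements it does not name Kit-lo CFU-E cells. The counts do not show whether the *Mettl3* reads came from exons outside the deleted part, and the label is kept here as the submitters gave it. *Kit* followed the gate, at 544, 629 and 622 CPM in control and 68.5, 53.1 and 44.0 CPM in Kit-lo libraries. The summed level of 6 late erythroid markers ran from 163 to 188 CPM in control and from 1337 to 2147 CPM in Kit-lo libraries, with 5 of the 6 higher, while that of 5 erythroid progenitor markers, *Kit* among them, ran from 3015 to 3112 and from 3007 to 3143 CPM, with *Klf1* (0.59) and *Epor* (0.59 on the log2 scale) higher, *Kit* lower and the other two not called. Macrophage markers summed to between 7.27 and 11.4 CPM in every library, with *C1qa* called lower. Granulocyte markers summed to between 19.4 and 29.1 CPM in control and 4.22 and 14.2 CPM in Kit-lo libraries, with *Mpo* called lower. Megakaryocyte markers summed to between 4.31 and 6.63 CPM in control and 6.73 and 16.0 CPM in Kit-lo libraries. Of these, *Itga2b* and *Gp9* were called higher, while *Pf4* lay lower and did not pass. Of the listed markers, 3 of 4 megakaryocyte, 2 of 3 B cell and 2 of 3 T cell markers were found. B cell and T cell markers summed to at most 1.04 and 2.92 CPM. No marker present in the table was at 0 in all libraries. The part of these shifts in the chaperone values was not tested.

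Chaperone genes moved in both directions. CCT and cytosolic HSP90 genes were lower in CFU-E Kit-lo cells at any fold, and 4 DNAJB genes, *Dnaja4*, *Hspa13*, *Dnajc30* and *Hspbap1* were higher. After filtering on low counts, 70 of the 75 were tested. Genes were called at a fold of at least 1.5 with an adjusted p under 0.05 in edgeR's quasi-likelihood test. On that rule, 8 of the 70 were higher in CFU-E Kit-lo cells, against 12.1% of all 11979 genes tested, and 5 were lower, against 9.83%. At an adjusted p under 0.05 and any fold, 10 were higher, against 17.6% of all genes, and 16 were lower, against 16.9%. In 16 genes every Kit-lo library was above every control library and in 23 every one was below, while 47.5% of all genes separated in either direction and 24% (2876 of 11979) in the lower one. The median log2 fold change of the 70 was 0.0029 and that of all genes 0.0080. As a whole the chaperone genes were thus near the background. Without the genes that match by name alone, 7 were higher and 5 lower, and at any fold 9 were higher and 16 lower. Scaling to the upper quartile gave 6 higher and 8 lower in place of 8 and 5, and scaling to library size alone 8 and 3. Those not tested were *Cct6b*, *Dnajb5*, *Dnajb8*, *Hspb1* and *Hspb9*, each with at most 1.15 CPM in any library.

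**Figure D1:**
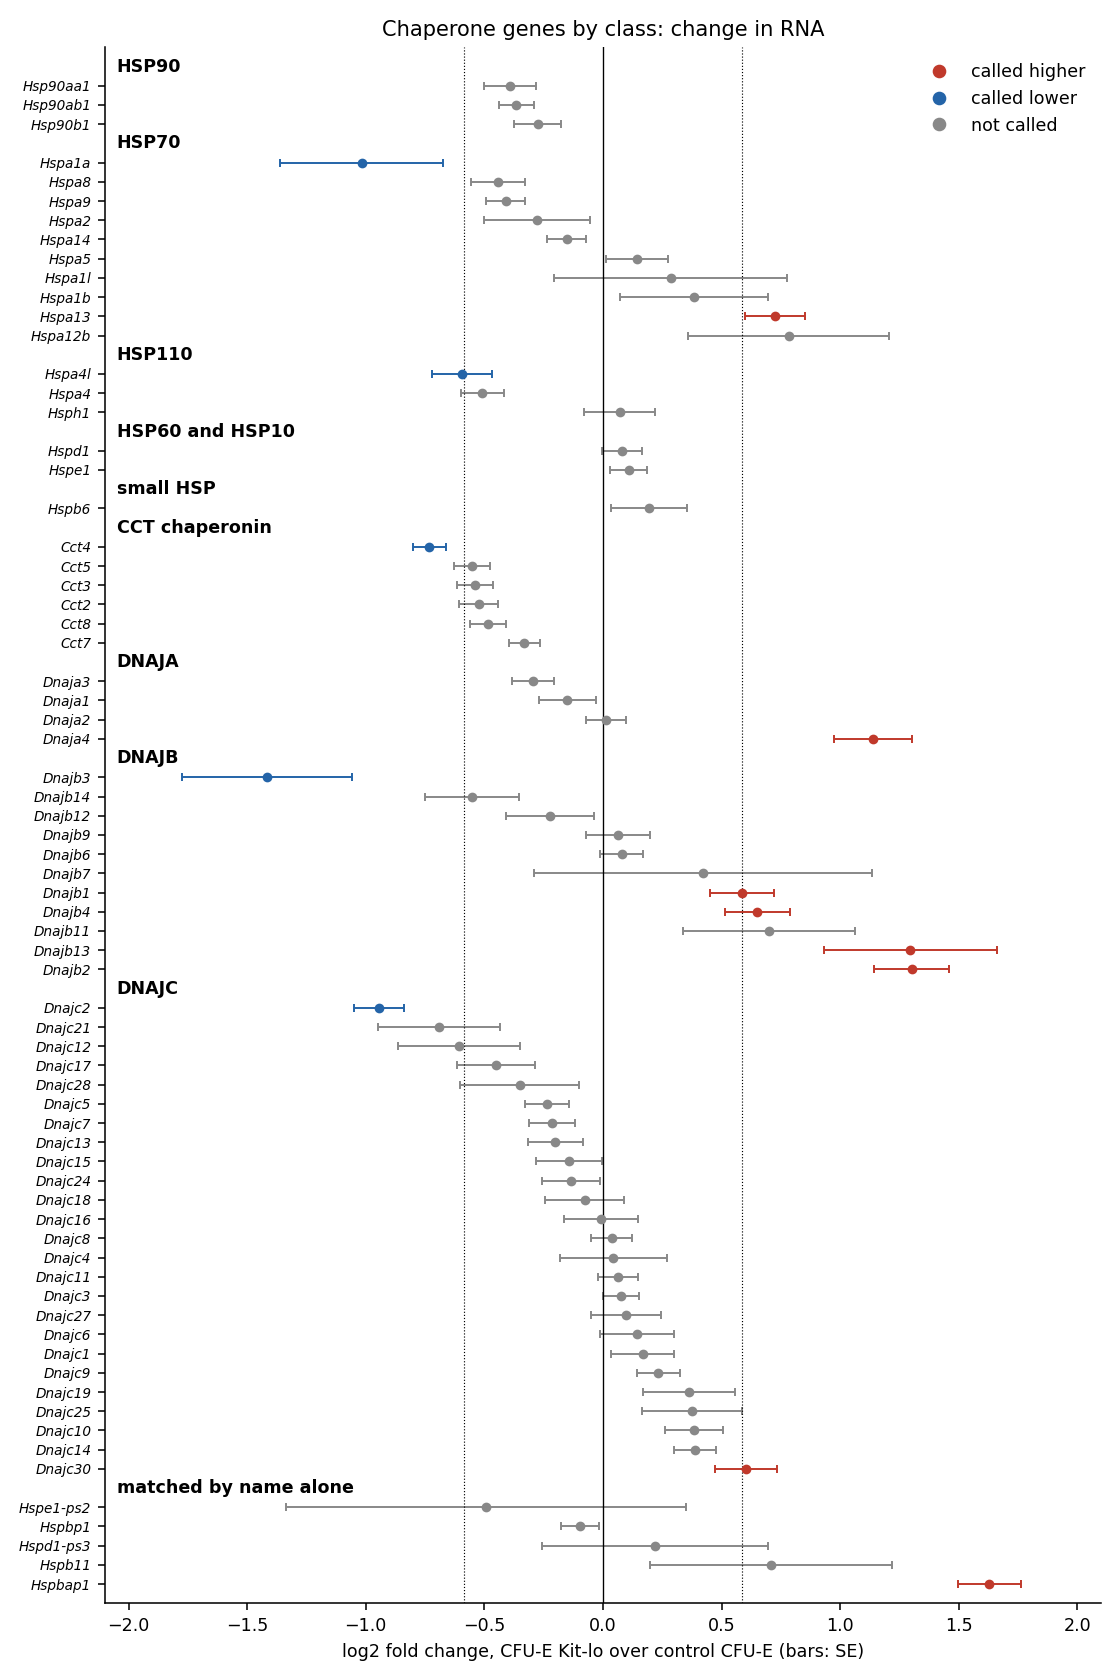
Log2 fold change of CFU-E Kit-lo over control CFU-E for the 70 tested chaperone genes, grouped by class, with bars for the SE and dotted lines at a fold of 1.5. The 6 CCT genes and the 3 HSP90 genes all lie to the left of 0, and the 4 DNAJB genes called higher lie at 0.59 to 1.30.

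Compared per kilobase of annotated exon, the constitutive HSP70 gene *Hspa8* had the highest level in control CFU-E, at 2923 ± 503 CPM per kilobase (SD, n = 3). *Hsp90aa1* followed at 1428 ± 167, *Hspd1* at 1295 ± 121, *Cct5* at 1126 ± 75.3 and *Hsp90ab1* at 1103 ± 65.4 CPM per kilobase. *Hsp90aa1* and *Hspd1* differed by less than the SD of the former, and *Cct5* and *Hsp90ab1* by less than either SD. *Cct7* stood apart from them at 608 ± 14.6 CPM per kilobase. Several of the abundant genes share sequence with other genes. Of the 31-base words of *Hspd1*, 53.1% occur in transcripts of another gene, as do 51.5% of those of *Hsp90aa1* and 44.8% of those of *Hspa8*. A share of words is not a share of counts, and how far their counts are affected was not measured.

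All 3 HSP90 genes lay lower in Kit-lo cells, by less than the fold of 1.5. *Hsp90aa1*, the inducible cytosolic HSP90, was at 5195, 4179 and 5109.8 CPM in control and 3263, 4148 and 3617 CPM in Kit-lo libraries. The lowest control and the highest Kit-lo library nearly met. The log2 fold change was -0.39 ± 0.11 (adjusted p = 0.0189 in edgeR), and its adjusted p reached 0.078 over the alternatives. *Hsp90ab1*, the constitutive form, had a log2 fold change of -0.36 ± 0.07 (adjusted p = 0.00325 in edgeR), and its groups were apart. *Hsp90b1*, the HSP90 of the ER, had a log2 fold change of -0.28 ± 0.10 and did not pass (adjusted p = 0.0526 in edgeR). The summed level of the class was 7434 to 8931 CPM in control and 6041 to 7039.8 CPM in Kit-lo libraries.

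HSP70 genes went both ways. Of 10 tested, 1 was called higher and 1 lower, against 12.1% and 9.83% of all genes, and 3 were lower at any fold, against 16.9%, with a median log2 fold change of -0.0042. *Hspa8* was at 7908, 5632 and 7453 CPM in control and 4969, 5141 and 5351 CPM in Kit-lo libraries. The Kit-lo libraries lay close together and below every control library, of which the second was nearest to them. Between groups, the log2 fold change was -0.44 ± 0.11 (adjusted p = 0.0137 in edgeR), and the adjusted p reached 0.062 over the alternatives. *Hspa9*, the HSP70 of mitochondria, had a log2 fold change of -0.41 ± 0.08 (adjusted p = 0.00362 in edgeR). *Hspa13*, an HSP70 of the microsomes without the usual client-binding domain, was at 30.5, 27.6 and 31 CPM in control and 48.4, 44.5 and 54.4 CPM in Kit-lo libraries. All Kit-lo libraries were above all control libraries. It rose by 0.72 ± 0.13 (SE) on the log2 scale (adjusted p = 0.00158 in edgeR), and it remained called without any 1 library. *Hspa5*, which encodes the ER chaperone BiP, did not pass at 0.14 ± 0.13 (adjusted p = 0.437 in edgeR).

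The inducible pair behaved unevenly. *Hspa1a* was at 639, 297 and 756 CPM in control and 159.9, 373 and 303 CPM in Kit-lo libraries. The second control library lay below the 2 higher Kit-lo libraries, so the groups overlapped and the spread within each group was wide. The log2 fold change was -1.02 ± 0.35 (adjusted p = 0.044 in edgeR). The call was lost in DESeq2 (adjusted p = 0.0766), with library size alone (0.052), with the replicate block (0.073), when the first control (0.131), the third control (0.188) or the first Kit-lo library (0.081) was left out, and when the counts of *Hspa1a* and *Hspa1b* were summed, with a log2 fold change of -0.96 (adjusted p = 0.0526 in edgeR). *Hspa1b* itself was at 12.5, 10.4 and 17.3 CPM in control and 9.45, 20.5 and 22.5 CPM in Kit-lo libraries, and did not pass. The remaining tested HSP70 genes, *Hspa14*, *Hspa2*, *Hspa1l* and *Hspa12b*, did not pass either.

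Of the HSP110 genes, which exchange the nucleotide of HSP70, both *Hspa4* and *Hspa4l* lay lower and *Hsph1* did not pass. *Hspa4l* was at 69.9, 52.8 and 65.4 CPM in control and 41.9, 40.3 and 42.6 CPM in Kit-lo libraries, with no overlap and with the Kit-lo libraries close together. Its log2 fold change was -0.59 ± 0.13 (adjusted p = 0.00507 in edgeR), just past the fold of 1.5, whose log2 is 0.585. The fold dropped under that limit without the first control library (-0.51), the third control library (-0.57) or the second Kit-lo library (-0.54), and also with library size alone (-0.54), with a minimum of 1 CPM (-0.58) and with the replicate block (-0.58). *Hspa4* changed by -0.51 ± 0.09 on the log2 scale (adjusted p = 0.00193 in edgeR) and was just outside the fold limit. *Hsph1* was at 732, 454 and 594 CPM in control and 559, 656 and 652 CPM in Kit-lo libraries. The Kit-lo values sat inside the range of the control values. Its log2 fold change was 0.07 ± 0.15 (adjusted p = 0.762 in edgeR) and took the other sign, at -0.097, without the second control library.

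The mitochondrial chaperonin showed no call. *Hspd1* (HSP60) was at 3221, 2813 and 3382 CPM in control and 3388, 3416 and 3157 CPM in Kit-lo libraries, and *Hspe1* (HSP10) at 338, 310.0 and 315 CPM in control and 325, 363 and 350.0 CPM in Kit-lo libraries. In both genes the groups overlapped. The log2 fold changes were 0.08 ± 0.08 and 0.11 ± 0.08 (SE), with adjusted p of 0.499 and 0.316 in edgeR. Small HSP genes were scarce in these cells. *Hspb6* was the 1 of 3 that could be tested, at 13.2, 14.4 and 15.3 CPM in control and 15.4, 17.8 and 15.8 CPM in Kit-lo libraries, each Kit-lo library just above each control library. Its change on the log2 scale, 0.19 ± 0.16, did not pass (adjusted p = 0.397 in edgeR).

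All 6 CCT subunit genes tested were lower in Kit-lo cells at an adjusted p under 0.05, each with no overlap between the groups, and the log2 fold changes ran from -0.73 to -0.33 with a median of -0.53. The background shares are 16.9% of genes lower at any fold and 24% separated downwards. The summed level of the class was 5463, 5289.8 and 5718 CPM in control and 3878, 3783 and 3952 CPM in Kit-lo libraries. All 6 genes were lower at an adjusted p under 0.05 in DESeq2, under each scaling and filter, with the replicate block and without any 1 library. In the test against a fold of 1.5, which asks more than a difference from 0, the count was 0 (1 gene at an unadjusted p under 0.05).

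*Cct4*, the delta subunit (chr11:22990519-23003780, plus strand, GRCm38), was the one past the fold of 1.5. It stood at 723, 718 and 754 CPM in control and 434, 428 and 459 CPM in Kit-lo libraries. The spread within either group was small beside the gap. The log2 fold change was -0.73 ± 0.07 (adjusted p = 4.11e-05 in edgeR), between -0.77 and -0.68 over the alternatives. *Cct5*, the most abundant subunit gene by CPM, was at 2077, 1951 and 2229.9 CPM in control and 1467, 1365 and 1433 CPM in Kit-lo libraries, a log2 fold change of -0.55 ± 0.08 (adjusted p = 0.000371 in edgeR). It lay just under the fold limit and passed it with upper-quartile scaling (-0.59) and without the second control library (-0.61). *Cct3* (-0.54 ± 0.08), *Cct2* (-0.52 ± 0.08) and *Cct8* (-0.48 ± 0.08) changed by about as much, and *Cct7* (-0.33 ± 0.07) by less. The partner *Tcp1* was also lower, at -0.26 ± 0.07 (adjusted p = 0.0145 in edgeR). The other ring chaperonin, HSP60 with HSP10, had no call. The difference between the 2 ring systems was not tested.

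**Figure D2:**
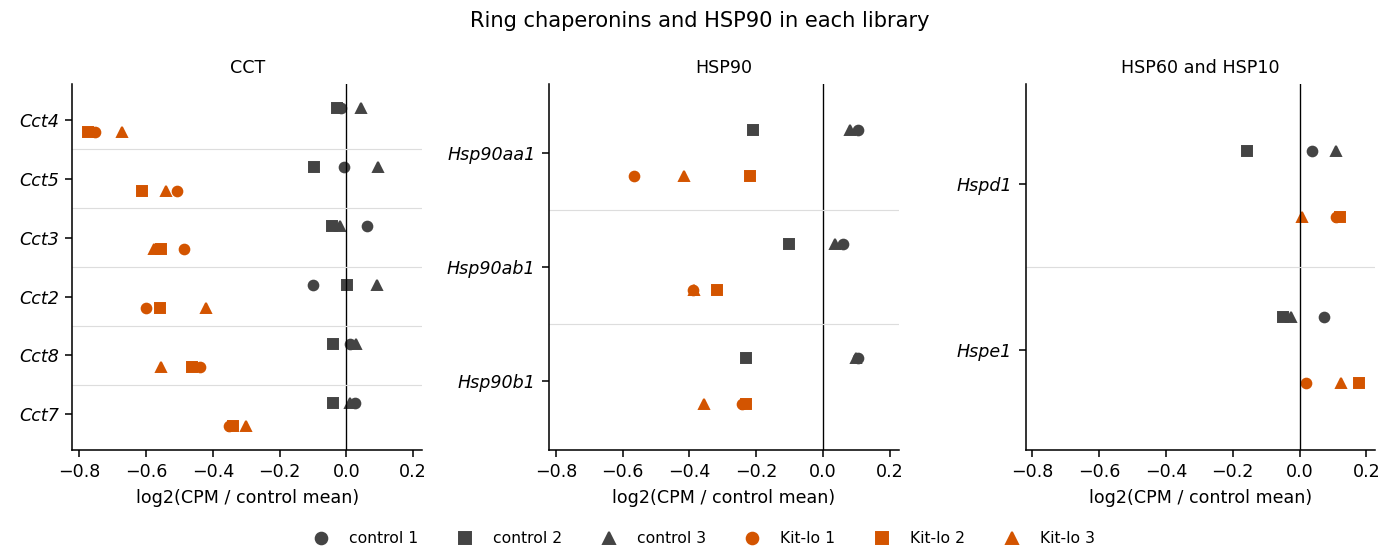
CPM of each library relative to the mean of the 3 control libraries, on a log2 scale, for CCT, HSP90 and HSP60 with HSP10; grey marks are control and orange marks Kit-lo libraries, with a shape for each replicate. In all 6 CCT genes the Kit-lo libraries stand apart from the control libraries, whereas *Hspd1* and *Hspe1* overlap.

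Among the DNAJA genes, the general cytosolic J-proteins and the mitochondrial *Dnaja3*, *Dnaja4* was called higher. It lies at chr9:54698873-54716315, plus strand (GRCm38), and was at 9.48, 11.4 and 10.4 CPM in control and 20.5, 23.6 and 24.7 CPM in Kit-lo libraries. Every Kit-lo library was above every control library. On the log2 scale it rose by 1.14 ± 0.16 (adjusted p = 0.000513 in edgeR) and remained called in DESeq2, under each scaling and filter, with the block and without any 1 library. The gene is uncertain in another way. Of the words of its transcripts, 43.2% lie opposite those of *Wdr61*, and whether counting used strand is not given in the sources used here. *Wdr61* itself was at 239.9, 236 and 229 CPM in control and 225, 223 and 219.9 CPM in Kit-lo libraries, a log2 fold change of -0.07 ± 0.07. *Dnaja1*, the most abundant of the class, was at 735, 522 and 656 CPM in control and 541, 635 and 548 CPM in Kit-lo libraries, overlapping, with a log2 fold change of -0.15 ± 0.12 (adjusted p = 0.383 in edgeR). *Dnaja3* was lower by less than the fold limit (-0.30 ± 0.09, adjusted p = 0.0251 in edgeR), and *Dnaja2* lay at 0.01 ± 0.09.

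Of the 11 DNAJB genes tested, 4 were called higher and 1 lower, against backgrounds of 12.1% and 9.83%. Their median log2 fold change was 0.42, and it came to 0.12 without the first control library, 0.14 without the third control library and 0.14 without the second Kit-lo library. *Dnajb2*, a J-protein that hands ubiquitylated clients to the proteasome (chr1:75236406-75245692, plus strand), was at 33.7, 25.7 and 38.5 CPM in control and 70.0, 83.3 and 88.1 CPM in Kit-lo libraries. The Kit-lo libraries were well above the control libraries. It rose by 1.30 ± 0.16 (adjusted p = 0.000192 in edgeR), and it remained called without any 1 library. None of its transcript words occur in another gene. *Dnajb1*, the main stress-inducible partner of HSP70 in the cytosol, was at 410.2, 270.4 and 351 CPM in control and 493, 496 and 559.6 CPM in Kit-lo libraries. The groups did not overlap, and control libraries spread more than Kit-lo libraries. Its log2 fold change of 0.59 ± 0.13 (adjusted p = 0.00712 in edgeR) was barely past the fold limit and fell under it without the second control library (0.43), without the third Kit-lo library (0.54), with upper-quartile scaling (0.55) and with no filter (0.57).

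*Dnajb4*, a cytosolic relative of *Dnajb1*, was at 55.0, 48.1 and 65.6 CPM in control and 83.4, 100.2 and 81.4 CPM in Kit-lo libraries, with no overlap. The rise was 0.65 ± 0.14 on the log2 scale (adjusted p = 0.00441 in edgeR) and came under the fold limit without the second control library (0.54) or the second Kit-lo library (0.58). *Dnajb13*, known as a part of the radial spokes of cilia and flagella, was low throughout, at 1.77, 3.20 and 2.69 CPM in control and 8.93, 5.0 and 4.85 CPM in Kit-lo libraries. Every Kit-lo library was above every control library, and the first was the highest. The fitted change was 1.30 ± 0.37 (adjusted p = 0.0202 in edgeR), and the call was lost without the first control library, the third control library or the first Kit-lo library, with adjusted p of 0.0788, 0.0639 and 0.0767, and with the replicate block (0.0515). Of its transcript words, 9.97% lie opposite those of *Ucp2*, an abundant gene at 577, 613 and 625 CPM in control and 887, 832 and 989 CPM in Kit-lo libraries, with a log2 fold change of 0.58 ± 0.08 (adjusted p = 0.000492 in edgeR). *Dnajb3* was the member called lower, also at low levels, with 4.17, 4.86 and 5.78 CPM in control and 1.25, 1.89 and 2.40 CPM in Kit-lo libraries. The groups did not overlap. Its fitted change was -1.41 ± 0.36 on the log2 scale (adjusted p = 0.0121 in edgeR), and without the third control library the adjusted p was 0.0592. *Dnajb11*, an ER J-protein that works with BiP, was at 23.9, 23.6 and 21.3 CPM in control and at 14.7, 42.0 and 55.0 CPM in Kit-lo libraries, which fell on both sides of the control values, and did not pass.

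DNAJC is the largest and most varied family, whose proteins are mostly tied to 1 place or task. Of 25 tested, 1 was called higher and 1 lower, against 12.1% and 9.83% of all genes, and 3 were higher and 1 lower at any fold, against 17.6% and 16.9%, and the median log2 fold change was 0.036. *Dnajc2* (zuotin), which binds ribosomes and works with the HSP70 protein *Hspa14* on nascent chains (chr5:21757267-21785251, minus strand), was at 319, 247 and 278 CPM in control and 144, 157 and 137 CPM in Kit-lo libraries. All control libraries stood far above all Kit-lo libraries. The fitted log2 fold change was -0.94 ± 0.11 (adjusted p = 0.000113 in edgeR), and it remained called without any 1 library. Its partner *Hspa14* had a log2 fold change of -0.15 ± 0.08 (adjusted p = 0.184 in edgeR). *Dnajc30*, a mitochondrial J-protein, was at 57.4, 54.6 and 63.7 CPM in control and 83.6, 77.3 and 106 CPM in Kit-lo libraries, with no overlap. Its log2 fold change was 0.60 ± 0.13 (adjusted p = 0.00567 in edgeR), and it came under the fold limit without the first control (0.58), the second control (0.55) or the third Kit-lo library (0.47), with upper-quartile scaling (0.57) and with no filter (0.58). It shares 24.9% of its words with *Bud23* on the opposite strand, whose log2 fold change was 0.35 ± 0.12 (adjusted p = 0.0428 in edgeR). *Dnajc11*, of the mitochondrial outer membrane, had the highest CPM of the family, at 453, 407 and 451 CPM in control and 495, 448 and 427 CPM in Kit-lo libraries. The groups overlapped, with a log2 fold change of 0.06 ± 0.08 (adjusted p = 0.61 in edgeR). The others called at any fold were *Dnajc14* (0.39) and *Dnajc10* (0.38), an ER reductase.

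Of the genes that match by name alone, *Hspbap1*, which encodes a protein that binds the small heat shock protein HSPB1 (chr16:35770375-35828477, plus strand), had the largest rise of the 70 genes. It stood at 20.4, 19.6 and 17.2 CPM in control and 63.8, 52.8 and 60.2 CPM in Kit-lo libraries, which were far apart. The log2 fold change was 1.63 ± 0.13 (adjusted p = 1.5e-05 in edgeR) and remained called in DESeq2, under each scaling and filter and without any 1 library. HSPB1's own gene was at most 1.10 CPM in any library. *Hspbp1*, a nucleotide exchange factor of HSP70, was at 212, 217 and 206 CPM in control and 200.2, 184 and 209 CPM in Kit-lo libraries, overlapping, with a log2 fold change of -0.10 ± 0.08 (adjusted p = 0.396 in edgeR).

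**Figure D3:**
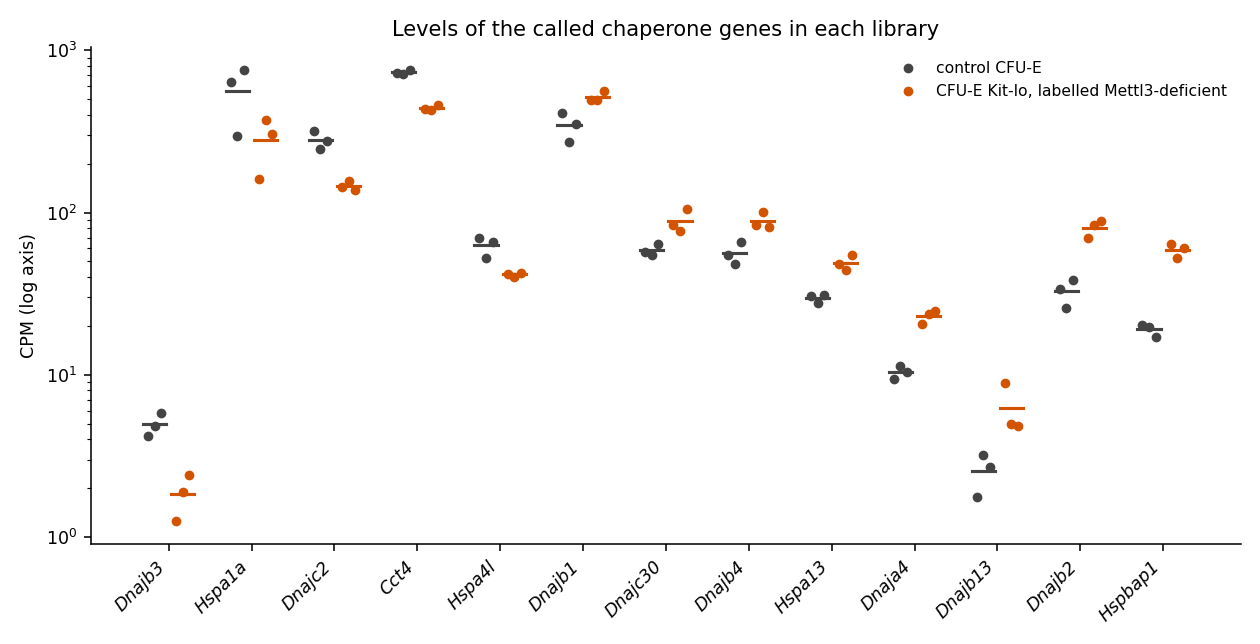
CPM on a log axis in each library for the 13 chaperone genes called at a fold of at least 1.5 and an adjusted p under 0.05, with a bar at the group mean; grey points are control CFU-E and orange points CFU-E Kit-lo libraries. *Hspa1a* is the called gene whose groups overlap, and *Hspbap1* matches by name alone.

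The second control library stood apart in the heat-inducible genes. It was the lowest control library in 16 of 16 tested HSF1 target genes and in 46 of the 70 chaperone genes (65.7%, against 37.5% of all genes). Among genes at 100 CPM or more in control, it was the lowest in 28 of 31 chaperone genes (90.3%) and in 1272 of 2366 genes (53.8%). Within the Kit-lo group, the first library was the lowest in 13 of the 16 targets, 24 of the 70 chaperone genes and 4211 of all 11979 genes. At 100 CPM or more in control, it was the lowest in 12 of 31 chaperone genes and 661 of 2366 genes. Replicate numbers carry no order here, and what set these libraries apart was not tested. Of the 17 genes listed as HSF1 targets, 12 are chaperone genes counted above, so the list is no separate evidence: at the fold of 1.5, 1 of 16 was higher (*Dnajb1*) and 3 were lower, against 12.1% and 9.83% of all genes, and at any fold 1 was higher and 8 lower, against 17.6% and 16.9%, with a median log2 fold change of -0.26. The lower calls were *Hspa1a*, *Hspa4l* and *Fkbp4*, which is no chaperone gene of the families above.

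**Figure D4:**
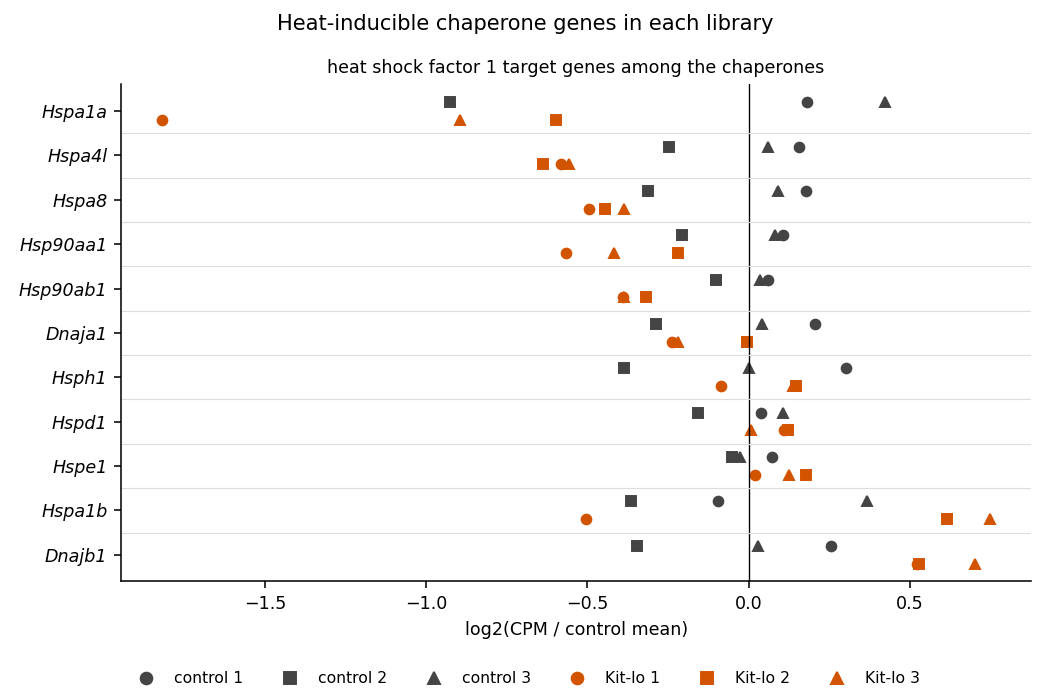
CPM of each library relative to the mean of the control libraries, on a log2 scale, for the 11 tested chaperone genes in the list of HSF1 targets; grey marks are control and orange marks Kit-lo libraries. The square for the second control library is the lowest control mark in every gene, and *Hspa1a* has the widest spread.

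Genes that work with the chaperones were read from lists written from general knowledge. Of 17 HSP90 co-chaperones tested, 9 were lower at any fold and 1 higher, against 16.9% and 17.6% of all genes, with a median log2 fold change of -0.37. At the fold of 1.5, *Fkbp5* (-1.51 ± 0.21) and *Fkbp4* (-0.89 ± 0.08), immunophilins of the steroid receptor complex, were lower and *Unc45a* (0.66 ± 0.13), a myosin chaperone, was higher. *Fkbp4* was at 1257, 1116 and 1269 CPM in control and 681, 629 and 649.6 CPM in Kit-lo libraries, and *Fkbp5* at 19.6, 20.9 and 23.6 CPM in control and 6.60, 9.66 and 6.21 CPM in Kit-lo libraries, with no overlap in either gene. Of the partners of HSP70, 4 of 14 were called higher and none lower at that fold, against 12.1% and 9.83% of all genes, 1 of the 14 being *Hspbp1*, given above. *St13* (-0.46), which links HSP70 to HSP90, was lower and *Sil1* (0.55) higher at any fold only. *Bag5* (1.38 ± 0.10), *Grpel2* (1.02 ± 0.10), *Grpel1* (0.68 ± 0.07) and *Bag2* (0.65 ± 0.08) were the genes called higher. *Bag5* and *Bag2* bind HSP70 in the cytosol, and the Grpel genes encode the nucleotide exchange factors of mitochondrial HSP70. *Bag5* was at 65.5, 60.2 and 71.3 CPM in control and 174, 163 and 175 CPM in Kit-lo libraries, and *Grpel2* at 61.7, 54.4 and 60.1 CPM in control and 116, 127 and 115 CPM in Kit-lo libraries.

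Among 10 partners of CCT, namely prefoldin subunits, phosducin-like cofactors and *Tcp1*, 3 were lower at any fold (16.9% of all genes) and none past 1.5, with a median of -0.24. Over all genes, 12.1% were called higher and 9.83% lower at the fold of 1.5, and 17.6% and 16.9% at any fold. These shares are the background for each list that follows in this paragraph. Of 12 ER folding genes, *Uggt1*, the sensor of glycoprotein folding, was called higher (0.73 ± 0.09), and 4 were lower and 2 higher at any fold. Of 12 mitochondrial folding and protease genes, *Hscb*, the J-protein of iron-sulfur cluster assembly, was called lower (-1.07 ± 0.21) and *Grpel1* higher. *Hscb* was at 20.1, 22.3 and 21.8 CPM in control and 12.1, 7.04 and 11.3 CPM in Kit-lo libraries. Of 18 targets of the unfolded protein response, 7 of them chaperone genes counted above, *Herpud1* was called lower (-0.73 ± 0.16) and *Hspa13* higher, and the median was 0.054. The transcription factors showed small changes: of 6 tested, *Hsf1* (0.31 ± 0.09) and *Atf6* (0.53 ± 0.13) were higher and *Xbp1* (-0.52 ± 0.16) lower at an adjusted p under 0.05 in edgeR, none past the fold of 1.5.

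In the m6A experiment, RNA bound by an antibody to m6A (IP) was compared with input RNA of control CFU-E cells. The libraries read the 3′ end of transcripts and give 1 value a gene, not sites. Of 68 chaperone genes tested, 3 were higher in IP at an adjusted p under 0.05, against 7.9% of all 11447 genes tested, and 5 were lower, against 7.86%. The median log2 fold change of IP over input was -0.021, and that of all genes 0.056. The scaling moved these values: the median of all genes was 0.21 with library size alone and 0.18 with the upper quartile, where 4 and 7 chaperone genes were higher and 3 and 5 lower. With the replicate number as a block, 10 were higher and 14 lower. Whether an IP and an input library of 1 number came from the same RNA is not given in the sources used here. *Hspa12a*, *Hspa1l*, *Hspb1* and *Dnajb8* were too low to be tested.

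The 3 genes called higher in IP were *Hspa5*, *Dnaja3* and *Hspa9*. *Hspa5* (BiP) was at 441 and 287 CPM in input and 951 and 537 CPM in IP, a log2 fold change of 1.03 ± 0.31 (adjusted p = 0.0487 in edgeR). *Dnaja3* was at 69.8 and 47.5 CPM in input and 140.5 and 90.5 CPM in IP (0.98 ± 0.28, adjusted p = 0.0408 in edgeR). *Hspa9*, whose protein works with *Dnaja3* in mitochondria, was at 108 and 86.9 CPM in input and 219 and 139 CPM in IP (0.88 ± 0.26, adjusted p = 0.0465 in edgeR). In all 3 both IP libraries were above both input libraries, and the first IP library was the higher. With DESeq2's size factors in edgeR the adjusted p of *Hspa5* was 0.0515. The calls also depended on single libraries. Without the first input library, the second input library or the first IP library, none of the chaperone genes was called higher in edgeR (3, 4 and 0 at an unadjusted p under 0.05), and 8 were without the second IP library. In those settings the lone library of its kind is assumed to vary like the other group.

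*Dnajc25*, a membrane J-protein, had the lowest ratio of IP to input, at 43.5 and 49.2 CPM in input and 5.42 and 6.63 CPM in IP, a log2 fold change of -2.95 ± 0.27 (adjusted p = 5.41e-05 in edgeR). *Dnaja4* was at 29.5 and 16.9 CPM in input and 6.57 and 1.76 CPM in IP (-2.43 ± 0.51, adjusted p = 0.0105 in edgeR), and *Dnajc21*, a factor of ribosome assembly, at 17.9 and 15.9 CPM in input and 5.75 and 5.03 CPM in IP (-1.64 ± 0.28, adjusted p = 0.00311 in edgeR). Both input libraries were far above both IP libraries in these genes, and the 3 calls remained under each scaling and filter, in DESeq2 and without any 1 library. *Hspb6* (-1.07 ± 0.31, adjusted p = 0.04 in edgeR) and *Dnajc30* (-0.84 ± 0.23, adjusted p = 0.0326 in edgeR) were also lower, but their calls were lost with library size alone and without either input library or the first IP library. The call of *Dnajc30* was lost without the second IP library too. *Wdr61*, opposite *Dnaja4*, had a log2 fold change of -0.19 ± 0.22 and *Bud23*, opposite *Dnajc30*, one of -0.55 ± 0.21, and neither passed.

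In edgeR without the block, none of the 3 HSP110, 3 HSP90 and 7 CCT genes was called in IP, while 1, 0 and 2 had an unadjusted p under 0.05. DESeq2 called 1 HSP110 gene higher and 1 CCT gene lower, and the fit with the block called 1 HSP110 gene higher, 1 HSP90 gene lower, and 1 CCT gene higher and 2 lower. On the log2 scale of IP over input, *Hsph1* lay at 0.80, *Hspa4l* at 0.31 and *Hspa4* at 0.11, and *Hsp90ab1* lay at -0.51, *Hsp90aa1* at -0.09 and *Hsp90b1* at -0.09. Among the CCT genes, *Cct2* (0.46) and *Cct4* (0.41) had the highest values and *Cct3* (-0.67) and *Cct8* (-0.53) the lowest. *Cct5* (-0.19), *Cct7* (-0.25) and *Cct6b* (-0.02) lay between them. The move of the median of all genes with the scaling is about as large as the values of *Hspa4*, *Hsp90aa1*, *Hsp90b1*, *Cct5* and *Cct6b*, so no direction is given for these.

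The calls in IP and in RNA were set side by side. Of the 59 chaperone genes not called in IP, 6 were called higher in RNA and 5 lower at the fold of 1.5. None of the 3 higher in IP was called in RNA at the fold of 1.5, and their median RNA log2 fold change was -0.30. Both *Dnaja3* and *Hspa9*, however, were lower in RNA at any fold. Of the 5 lower in IP, *Dnaja4* and *Dnajc30* were called higher in RNA and none lower. Over all genes, 10.2% of those higher in IP were lower in RNA at the fold of 1.5, and 17.3% of those lower in IP were higher in RNA. Among all genes not called in IP, 10.5% were lower and 12.1% higher in RNA. Over the 67 genes tested in both, the 2 log2 fold changes had a Pearson r of -0.016 and a Spearman rho of 0.090, beside -0.028 and -0.033 over all 10773 genes tested in both, given as a description, since the points share libraries and genes are not independent replicates. No chaperone gene was both higher in IP and lower in RNA at the fold of 1.5.

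The partner lists were read in the same way in IP. Over all genes tested, 7.9% were higher in IP and 7.86% lower, the background for each list here. Of 7 heat shock and stress factors tested, *Hsf2* (1.84 ± 0.33) and *Hsf5* (3.37 ± 0.74) were higher in IP and none lower. *Hsf5* was near the floor, with counts of 3 and 1 in input (0.132 and 0.0562 CPM) and 37 and 25 in IP, so its fold is uncertain. Of the 14 HSP70 partners *St13* (1.76 ± 0.26) was higher, and *Bag1* (-4.37 ± 0.26) and *Sil1* (-0.74 ± 0.22), the nucleotide exchange factor of BiP, were lower. *Bag1* was at 1164 and 1254 CPM in input and 65.8 and 51.3 CPM in IP. Of the 17 HSP90 co-chaperones 1 was higher (*Chordc1*) and 2 were lower (*Cdc37* and *Fkbp8*), and of the 10 CCT partners 1 was higher (*Vbp1*). Of 12 ER folding genes and of 18 targets of the unfolded protein response, 2 were higher and 2 lower in each list, with *Canx*, the lectin chaperone calnexin, at 1.82 ± 0.29. Of 12 mitochondrial genes 2 were higher and 1 was lower, and of 16 HSF1 targets 1 was higher and none lower. Lists that hold chaperone genes of the families above are no separate evidence for them.

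**Figure D5:**
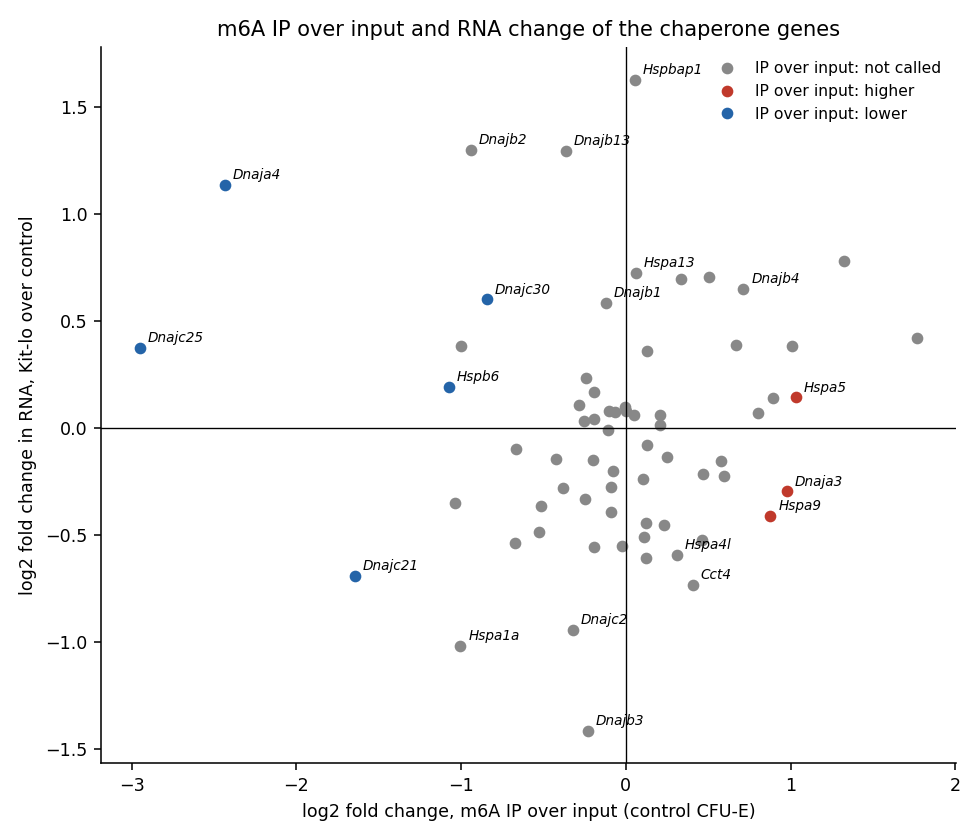
Log2 fold change of RNA in CFU-E Kit-lo over control cells against that of m6A IP over input in control CFU-E cells, for the 67 chaperone genes tested in both; red and blue mark genes called higher and lower in IP, and genes called in either experiment are named. *Dnaja4* and *Dnajc30* are the genes lower in IP and called higher in RNA, and no gene is called in IP among those called lower in RNA.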

How the data were processed

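RNA-seq libraries of control CFU-E (3) and CFU-E Kit-lo (3) cells and m6A input (2) and IP (2) libraries of control CFU-E cells were analysed. The 6 proerythroblast samples were not analysed here. Per the labels, the authors filtered reads with fastp 0.23.4 and quantified transcripts with kallisto 0.48.0, and per their methods merged them to genes on mm10 and deposited estimated counts, which were whole numbers and not normalized. Smart-seq2 libraries were primed with oligo-dT and m6A libraries carried molecular identifiers, whose use in the counting is not given in the sources used here. Strand is not given either. The SE printed with a log2 fold change comes from the fit and reflects the spread between libraries, which sets the precision.

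Counts were fitted in R 4.3.3 with edgeR 4.0.16 (TMM, filterByExpr, glmQLFit, glmQLFTest), 1 fit an experiment over all genes, with Benjamini-Hochberg adjustment over all genes tested. RNA genes were called at a fold of at least 1.5 and an adjusted p under 0.05, m6A genes at an adjusted p under 0.05. SE is the absolute log2 fold change divided by the square root of F. CPM use TMM. Alternatives were DESeq2 1.42.0, other scalings and filters, a replicate block, a test against a fold of 1.5 and each library left out. Summing *Hspa1a* and *Hspa1b* was chosen after seeing the data. The tests were checked on simulated counts, with set changes larger than most of those given here and only in genes above a minimum level. How smaller changes are recovered was not checked.

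Within groups log2 CPM correlated across genes at r of 0.967 to 0.983 in RNA-seq and 0.979 to 0.984 in m6A libraries, and identical pairs of libraries numbered 0. Coordinates, exonic lengths and transcripts are GENCODE's for GRCm38, and promoters RefSeq's. Words are 31 bases long. Figures were drawn with matplotlib 3.10.9.

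Genes named with values were those called in RNA, the member with the highest CPM in each class, and up to 5 called in IP in each direction. Partner lists name up to 4 called genes. Genes named beyond this rule were chosen after their values were seen. The members and lists were chosen with earlier results of these data known.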

Additional observations from a re-analysis of the deposited data

How the results depend on the processing

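The counts of 8 chaperone genes higher (7 without those matching by name alone) and 5 lower in CFU-E Kit-lo cells moved with the setting. Lower genes numbered 3 with library size alone, 8 with the upper quartile, 3 with the replicate block and 16 with no fold threshold, and the test against a fold of 1.5 left 3 higher and 1 lower. Leaving out each library gave 5 to 9 higher and 2 to 7 lower, with the fewest higher without the second control library and the fewest lower without the third. Replicate numbers did not pair the RNA-seq libraries (deviation r of -0.072 to 0.034), and the 2 m6A pairs, with r of 0.21, are too few to decide it, nor do the sources used here say that an IP and an input library of 1 number came from the same RNA. In the m6A comparison, lower genes numbered 8 in DESeq2 and 3 with library size alone, and higher genes 7 with the upper quartile and 5 with a minimum of 1 CPM. The replicate block gave 10 higher and 14 lower. Leaving out each library gave 0 to 8 higher and 3 to 9 lower. *Hsph1* ran from -0.097 without the second control library to 0.25 over the left-out libraries, and *Dnajc11* from -0.0022 without the first Kit-lo library to 0.12, and neither passed in any setting. The cause of these shifts was not tested. In RNA, *Cct4*, *Dnaja4*, *Dnajb2*, *Dnajc2*, *Hspa13* and *Hspbap1* kept their direction and call under each scaling, filter, tool, block and left-out library. The test against a fold of 1.5 is not among these settings. It called 0 CCT genes, so *Cct4* lost its call there, and not every gene named here kept one. In IP, *Dnaja4*, *Dnajc21* and *Dnajc25* kept their direction and call under each scaling, filter, tool and block, and their direction without each library. With 3 libraries against 3, and 2 against 2, changes smaller than the spread between libraries were not detectable, and genes at a few CPM least of all.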

Other observations

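The levels of the chaperone genes in control CFU-E differed between the kinds of library. The tables were normalized separately and made by different protocols, so the values stand side by side with no test. *Hsph1* was at 593 ± 139 CPM in the RNA-seq libraries (SD, n = 3) and 26.8 ± 6.08 CPM in the input libraries (SD, n = 2). *Hspa1a* was at 564 ± 239 and 26.7 ± 9.72 CPM, and *Hspa9* at 958 ± 37.4 and 97.5 ± 15.0 CPM. The order was the other way in *Cct8*, at 223 ± 5.45 and 917 ± 49.5 CPM, in *Dnajc15*, at 26.5 ± 2.57 and 151 ± 7.54 CPM, and in *Dnajc19*, a part of the mitochondrial import motor, at 10.3 ± 1.23 and 336 ± 37.4 CPM.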
